A study of Homo sapiens with 54 samples.

Results

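Enzalutamide (Enza) was added to 17-beta-estradiol (E2) in LNCaP cells, and gene expression was set against that of LNCaP cells given E2 without it. LNCaP is an established human prostate cancer line. Its libraries were assigned by their labels: 6 of the 54 libraries of the series belong to it, 3 treated with E2 (100 nM) and Enza (1 µM) together and 3 treated with E2 (100 nM) alone, and 14251 of the 19225 genes and other transcripts in the table were expressed highly enough to be tested. The cells were kept in RPMI medium with fetal bovine serum and treated for 12 h, with ethanol as the vehicle, and the 3 libraries of a group are biological triplicates per the labels. Both groups therefore carried E2 and serum, and the labels do not say that the serum was stripped of hormones. Beside them stand 3 libraries with Enza (1 µM) alone and 3 with vehicle alone from the same line, and the same treatments of C4-2, a line derived from LNCaP, and of 22Rv1, a line from a relapsed prostate tumour xenograft. Each line also has libraries treated with the compound OSU-ERb-12 (100 nM, 12 h), alone or with Enza. These enter the fits but none of the comparisons. All 3 lines are labelled WT for genotype.

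Androgens act on prostate cells through a nuclear steroid receptor, which binds response elements in DNA, switches on genes such as KLK3 and represses others. Enzalutamide is an antiandrogen used in prostate cancer: it competes with androgens and blocks their action on transcription. LNCaP is known for answering estradiol with genes of the androgen type. Estradiol also has its own receptors, encoded by ESR1 and ESR2.

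KLK3 and KLK2, neighbouring genes for prostate kallikreins and long-used readouts of androgen action, are shown by the DNA around their starts because both responded here. The windows are RefSeq promoters on GRCh38.p14, 250 bases before to 50 bases after the annotated start, both on the plus strand, at chr19:50854665-50854964 for KLK3 and chr19:50873189-50873488 for KLK2. Capitals mark a run of 14 bases that both windows share at the arm of an androgen response element, beginning 169 bases before the start in KLK3 and 175 bases before it in KLK2.
KLK3: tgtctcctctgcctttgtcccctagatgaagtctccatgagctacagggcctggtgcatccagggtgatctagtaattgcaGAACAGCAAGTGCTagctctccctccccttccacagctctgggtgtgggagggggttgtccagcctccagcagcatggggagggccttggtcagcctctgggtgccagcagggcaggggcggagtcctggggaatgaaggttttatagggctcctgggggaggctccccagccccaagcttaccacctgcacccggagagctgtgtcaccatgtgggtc
KLK2: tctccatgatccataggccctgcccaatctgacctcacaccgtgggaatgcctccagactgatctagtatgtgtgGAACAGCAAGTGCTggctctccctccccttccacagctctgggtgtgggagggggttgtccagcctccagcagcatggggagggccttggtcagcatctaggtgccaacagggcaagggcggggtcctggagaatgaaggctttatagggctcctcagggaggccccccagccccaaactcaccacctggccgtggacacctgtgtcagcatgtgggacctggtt
Over 294 aligned bases 225 were identical (76.5%). The letters AGAACA, one arm of the androgen response element, occurred once in the KLK3 window and not in the KLK2 window, where the aligned letters carry A1G, counted from the first base of AGAACA with KLK3 first. Searched on both strands, AGAACA was found in 14.8% of all 35116 RefSeq promoter windows of this length and in 9.87% of those of the tested genes. The full palindrome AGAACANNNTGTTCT was found in 1 of the 35116 windows and in none of the tested genes, and the estrogen response element GGTCANNNTGACC in 20 of them. These matches describe letters in short windows and say nothing of binding.

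The 6 libraries held 44765169 to 48188358 reads in genes, and levels are given as counts per 1000000 reads (CPM), with a single read equal to 0.0214 to 0.023 CPM. Correlations of log2 expression were 0.9971 to 0.9976 within a group and 0.9943 to 0.9953 between the groups. Luminal prostate markers summed to 5029 to 5077 CPM with E2+Enza and 6062 to 6098 CPM with E2, with all 18 markers measured and KLK3 the highest. Basal markers summed to 8.98 to 10.6 and 9.92 to 10.4 CPM, leukocyte markers to 9.98 to 11 and 10.7 to 11.8 CPM, and fibroblast markers, nearly all of them FN1 reads, to 419 to 458 and 413 to 441 CPM. Neuroendocrine markers, mostly SYT4, summed to 129 to 139 and 135 to 141 CPM. Mitochondrial mRNA took 3.23 to 3.30% and 3.30 to 3.55% of reads, and the part of these differences in any result was not tested. In such bulk samples fewer cells of a type and less RNA per cell cannot be told apart.

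Adding Enza to E2 lowered 1034 genes and raised 894 of the 14251 tested, at an adjusted p under 0.05 by limma with Benjamini-Hochberg adjustment, which is 7.26% and 6.27% of them and 13.5% together. Most changes were small: the median size on the log2 scale was 0.25 among lowered genes and 0.23 among raised genes. At least 2-fold changes were nearly all decreases, 49 lowered against 3 raised. The lowered genes were led by STEAP4, SLC2A3, SGK1, CCDC141 and NDRG1, and the raised genes by DAPK1 and TGM3. Leading genes were picked among called genes whose E2+Enza libraries all lay on the same side of the E2 libraries. Their separation, described below, is therefore part of the choice and adds no evidence. Among all 14251 genes tested, the groups of 4323 did not overlap. The split between directions depended on scaling, with 1135 raised and 707 lowered when only library totals scaled the reads, while each of the 33 leading and set genes kept its direction and its side of the threshold. Log2 differences were computed on log2(CPM + 0.5), which understates the change of low genes. In what follows ± after a log2 difference is its SE and after a level in CPM the SD of 3 libraries.

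STEAP4, a metalloreductase of the plasma membrane and endosomes (chromosome 7, 88270892 to 88306894), had 1.04, 0.758 and 0.862 CPM in E2+Enza libraries and 6.4, 6.95 and 8.25 CPM in E2 libraries. Every E2+Enza library lay far below every E2 library, and the log2 difference was -2.47 ± 0.18 (limma adjusted p = 7.93e-11). STEAP4 was lower still, 0.0902 CPM, with Enza alone and 0.319 CPM with vehicle. SLC2A3, a glucose transporter, had 1.86, 1.54 and 1.15 CPM with E2+Enza and 8.12, 9.0 and 10.2 CPM with E2 (-2.26 ± 0.20, adjusted p = 1.81e-09). The groups did not overlap, and with Enza alone SLC2A3 was almost without reads.

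SGK1, a kinase of ion transport and survival that glucocorticoids induce, had 5.92, 5.09 and 4.78 CPM with E2+Enza and 20.4, 22.3 and 21.7 CPM with E2 (-1.93 ± 0.13, adjusted p = 1.51e-11). NDRG1, a stress- and androgen-induced gene of differentiation, had 85.2, 79.7 and 78.1 CPM with E2+Enza and 288, 273 and 260 CPM with E2 (-1.75 ± 0.10, adjusted p = 8.28e-13). For both genes the E2+Enza libraries lay far under the E2 libraries and above the vehicle means of 2.96 CPM for SGK1 and 51.6 CPM for NDRG1. CCDC141, a coiled-coil protein gene, had 14.8, 10.1 and 11.1 CPM with E2+Enza and 43.4, 41.9 and 37.8 CPM with E2 (-1.75 ± 0.15). SLC38A4, an amino acid transporter, had 11.5, 8.14 and 8.69 CPM with E2+Enza and 31.6, 30.1 and 29.5 CPM with E2 (-1.65 ± 0.15). Here too the groups stood apart, and the first E2+Enza library was the highest of its group.

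Transcription factor genes were also among the strongest decreases. SNAI2, a repressor known from epithelial-mesenchymal transition, had 7.6, 5.71 and 4.93 CPM with E2+Enza and 22.1, 20.5 and 20.2 CPM with E2 (-1.72 ± 0.17). RUNX1, a regulator of blood and epithelial genes, had 10.9, 10.0 and 10.6 CPM with E2+Enza and 32.3, 32.8 and 35 CPM with E2 (-1.62 ± 0.08, adjusted p = 4.86e-14). MAF, a leucine zipper factor just outside the 12 leading decreases, had 152, 128 and 129 CPM with E2+Enza and 362, 350 and 342 CPM with E2 (-1.37 ± 0.06, adjusted p = 5.44e-16). None of these groups overlapped, which for SNAI2 and RUNX1 was a condition of their choice. The rest of the 12 leading decreases were the phospholipase gene PLA2G4E (-1.59 ± 0.17), DOCK8, an exchange factor for small GTPases (-1.45 ± 0.21), the pseudogene OR7E47P (-1.73 ± 0.15), whose reads may belong to related copies, and FKBP5.

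FKBP5, a co-chaperone of steroid receptors (chromosome 6, 35573590 to 35728583), was the most abundant of these strongly lowered genes. It had 422, 327 and 336 CPM with E2+Enza and 1030, 1016 and 1015 CPM with E2, against 114 CPM with Enza alone and 173 CPM with vehicle. The E2+Enza libraries lay between the E2 and vehicle levels, and the difference from E2 was -1.50 ± 0.06 (limma adjusted p = 1.06e-16).

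The increases were smaller than the decreases. Vehicle levels given beside them are set against the same E2 libraries. A vehicle level above that of E2 is thus in part built in. DAPK1, a kinase of cell death and autophagy (chromosome 9), had 4.39, 3.98 and 3.49 CPM with E2+Enza and 1.21, 1.13 and 1.47 CPM with E2 (1.33 ± 0.10, adjusted p = 3.97e-11). TGM3, a transglutaminase of epidermis, had 3.3, 3.74 and 4.82 CPM with E2+Enza and 1.53, 1.77 and 1.01 CPM with E2 (1.21 ± 0.14, adjusted p = 3.09e-07). Both pairs of groups were separate, and both genes were higher again with vehicle (8.56 ± 0.578 and 6.02 ± 0.651 CPM) and highest with Enza alone (14.5 ± 0.863 and 10.5 ± 1.92 CPM). DGKH, a diacylglycerol kinase, was the most abundant of the 12 leading increases: it had 157 CPM in each E2+Enza library and 95.5, 94.9 and 98.4 CPM in E2 libraries (0.70 ± 0.04, adjusted p = 1.2e-13). The other 9 rose by 0.71 to 0.92 on the log2 scale and included FFAR2, a receptor for short-chain fatty acids (0.92 ± 0.15), LRRN1, a leucine-rich repeat membrane protein (0.85 ± 0.08), ABCA12, a lipid transporter (0.84 ± 0.07), the protease PRSS23 (0.84 ± 0.08), TLL1, a metalloprotease (0.83 ± 0.11), and CBLN2, a secreted synaptic organizer (0.79 ± 0.08).

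**Figure D1:**
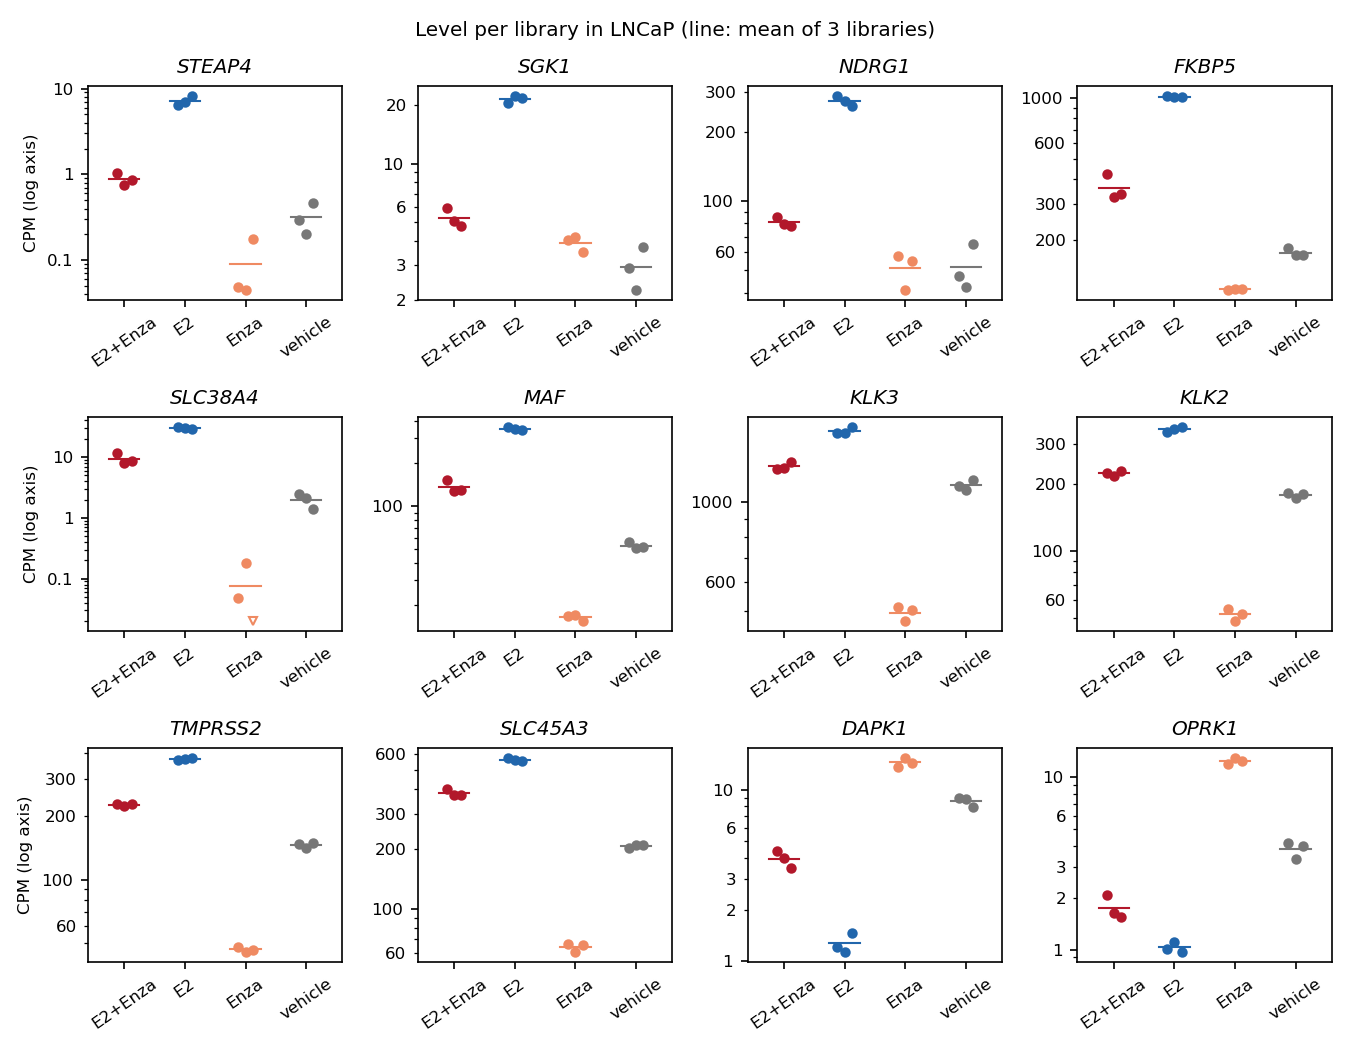
Expression of 12 genes in LNCaP, in CPM on a log axis, with points for the 3 libraries of each group in the order E2+Enza, E2, Enza and vehicle. FKBP5 lies at 327 to 422 CPM with E2+Enza and 1015 to 1030 CPM with E2, while DAPK1 lies at 3.49 to 4.39 and 1.13 to 1.47 CPM; an open triangle stands for a library with 0 reads.

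The classical androgen targets KLK3, KLK2, TMPRSS2 and SLC45A3 were lowered by less than FKBP5. KLK3, the gene for prostate-specific antigen, had 1237, 1248 and 1299 CPM with E2+Enza and 1557, 1561 and 1624 CPM with E2 (-0.33 ± 0.04, adjusted p = 2.53e-07). KLK2 had 222, 216 and 228 CPM with E2+Enza and 341, 350 and 360 CPM with E2 (-0.66 ± 0.04, adjusted p = 3.24e-12). In both kallikrein genes, whose promoters are printed above, all E2+Enza libraries lay under all E2 libraries and above the vehicle means of 1115 and 178 CPM. TMPRSS2, a membrane serine protease often fused to ETS genes in prostate cancer, had 228, 224 and 228 CPM with E2+Enza and 369, 373 and 380 CPM with E2 (-0.72 ± 0.03). SLC45A3, the prostein gene, had 400, 372 and 374 CPM with E2+Enza and 573, 555 and 550 CPM with E2 (-0.55 ± 0.04). These groups did not overlap either.

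Steroid receptor genes were measured as well. ESR2, encoding estrogen receptor beta, had 1.6, 2.34 and 1.77 CPM with E2+Enza and 1.86, 1.95 and 1.56 CPM with E2; the groups overlapped and the gene was not called (0.06 ± 0.16, adjusted p = 0.872). The mineralocorticoid receptor gene NR3C2 rose by 0.36 ± 0.08. PGR, the progesterone receptor gene, was called (0.59 ± 0.20, adjusted p = 0.049), but stayed under 1 CPM in all 6 libraries with overlapping groups, and was not called with cyclic loess. ESR1 was not found by symbol among the 19225 genes and other transcripts, and so was not tested.

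Which responses to E2 the antagonist blocked was asked with genes chosen outside LNCaP, since a gene picked for its rise with E2 in LNCaP shares the E2 libraries with the test. E2 raised 186 genes in both C4-2 and 22Rv1, all of them tested in LNCaP. Adding Enza to E2 lowered 162 of these in LNCaP (87.1%, against 7.26% of all genes tested), raised 1 and left 23 uncalled. Their median log2 difference was -0.398, with a range of -1.93 to 0.32, and 182 lay below 0, while the median of all genes was 0.004. Of 55 tested genes that E2 lowered in both other lines, Enza raised 41 in LNCaP (74.5%, against 6.27% of all genes), lowered 1 and left 13 uncalled, with a median of 0.27. One vehicle library of C4-2 carries the cell line tag of 22Rv1. An E2 library of C4-2 and a vehicle library of 22Rv1 have high ribosomal RNA (0.149% and 0.196% of reads). With the lists drawn without these, 135 of 150 raised genes were lower in LNCaP with E2+Enza (median -0.416) and 26 of 31 lowered genes were higher (median 0.312).

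Members with the largest decreases spanned several functions, and the best known of them are SGK1, NDRG1, FKBP5 and MAF, described above. LIFR, the receptor for leukemia inhibitory factor, averaged 52.7 ± 3.93 CPM with E2+Enza and 119 ± 1.61 CPM with E2 (-1.17 ± 0.05). ERRFI1, an inhibitor of the EGF receptor, had 50.6, 46.6 and 50.2 CPM with E2+Enza and 105 CPM in each E2 library (-1.09 ± 0.04). RHOU, an atypical small GTPase gene, averaged 48.2 ± 6.32 and 102 ± 1.79 CPM with E2+Enza and E2 (-1.08 ± 0.07). Others fell by over 1 on the log2 scale at lower levels: TMCC3 (-1.37), the pepsinogen gene PGC (-1.22), the kinase anchor gene AKAP12 (-1.17), the proteoglycan gene SPOCK1 (-1.12) and the elongation factor partner EAF2 (-1.02). Among the genes that E2 lowered elsewhere, Enza raised GASK1B, averaging 122 ± 5.14 CPM with E2+Enza and 76.2 ± 2.98 CPM with E2 (0.68 ± 0.04), TNFSF15, a TNF family cytokine gene (20.8 ± 2.14 and 12.6 ± 0.986 CPM, 0.70 ± 0.06), AMIGO2, an adhesion gene (0.83 ± 0.15), and NOVA1, a splicing regulator (0.55 ± 0.06).

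The exceptions were few. PRR15L went the other way from the rest of the raised genes: it averaged 37.9 ± 0.721 CPM with E2+Enza and 30.3 ± 1.87 CPM with E2 (0.32 ± 0.05, adjusted p = 6.34e-05), and in LNCaP its E2 level lay under the vehicle level of 36.5 ± 2.15 CPM. SYT4, a synaptotagmin gene that E2 lowered in the other lines, averaged 103 ± 3.35 CPM with E2+Enza and 113 ± 4.09 CPM with E2 (-0.14 ± 0.04), a call that total read scaling did not keep. Of the uncalled raised genes, DUSP4, a MAP kinase phosphatase gene, averaged 87.5 ± 7.36 and 88.5 ± 3.24 CPM with E2+Enza and E2 against 71.9 ± 2.99 CPM with vehicle. WFS1, an endoplasmic reticulum protein gene, averaged 43.1 ± 0.538 and 43.4 ± 2.21 CPM against 35.4 ± 0.695 CPM, and GCNT1, a glycosyltransferase gene, 106 ± 2.8 and 104 ± 1.93 CPM against 90.3 ± 2.59 CPM. These were chosen after their values were seen, as genes whose E2+Enza and E2 levels were alike. TBX3, GPR158 and BTG1 were also uncalled and differed by 0.05 or less on the log2 scale between E2 and vehicle in LNCaP.

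Most of these genes stood on the E2 side of vehicle with E2+Enza. E2+Enza minus vehicle, which shares libraries with the comparison above and is read only as levels, had 644 genes higher (4.52%) and 414 lower (2.91%) of 14251. Of the 186 genes raised in the other lines 123 were above vehicle with E2+Enza, 0 were below it and 63 were not called, and their median was 0.222 against 0.598 for E2 minus vehicle. Of the 55 lowered genes 29 were below vehicle and 1 was above it, with medians of -0.186 and -0.433. The count of calls moved to 568 without the first E2+Enza library, to 653 without the second and to 682 without the second vehicle library, and scaling to library totals split the calls into 333 higher and 440 lower. Among the 10 genes that E2 raised at least 2-fold in both other lines, all 10 were lowered by Enza (median -1.163) and 9 were above vehicle with E2+Enza (median 1.089, against 2.28 for E2).

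As a share of the difference in mean CPM between E2 and vehicle, what was left with E2+Enza ran from 8.27% for STEAP4, 12.4% for SGK1 and 13.2% for NDRG1 to 22.3% for FKBP5, 28.0% for MAF, 31.5% for KLK3 and 49.7% for SLC45A3. These shares describe means and carry no test. The genes furthest above vehicle with E2+Enza were SLC38A4 (log2 difference 2.00), CCDC141 (1.64), UGT2B28, a steroid glucuronidation gene whose reads may be shared with its family (1.51), MAF (1.36), the nicotinic receptor subunit gene CHRNA2 (1.26) and the phosphodiesterase gene PDE3A (1.21). Those furthest below were DAPK1 (-1.03), the kappa opioid receptor gene OPRK1 (-0.95), CBLN2 (-0.91), SLITRK3 (-0.82), the cholesterol exporter gene ABCA1 (-0.76) and ASZ1 (-0.75). The call for ASZ1 was lost without the first or the third E2+Enza library.

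**Figure D2:**
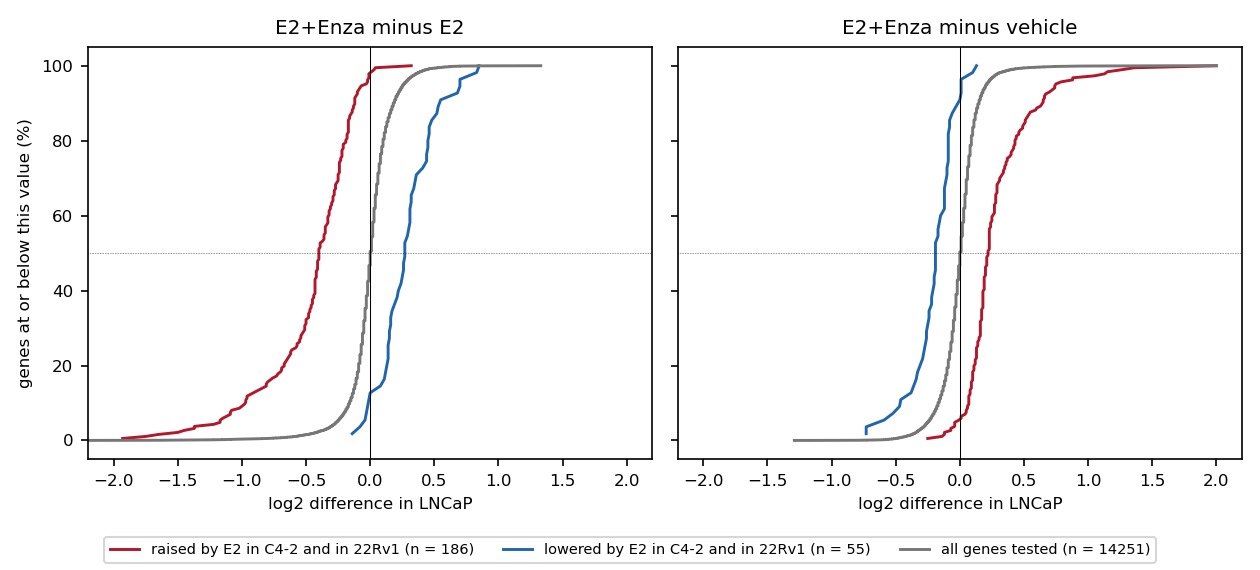
Cumulative share of genes (%) at or below each log2 difference in LNCaP, for 186 genes raised and 55 lowered by E2 in both C4-2 and 22Rv1 and for all 14251 genes tested. In E2+Enza minus E2 (left) the raised genes have a median of -0.398 and the lowered genes one of 0.27; in E2+Enza minus vehicle (right) the medians are 0.222 and -0.186.

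By function, the androgen-activated list had the largest median change. The lists were chosen with earlier results of these data known, and some genes stand in several lists. The lists are therefore not independent of these values or of each other. The counts of each list below stand beside 7.26% lower and 6.27% higher among all 14251 genes tested. The androgen-activated list gathers genes known to be induced by androgens. With E2+Enza 46 of its 49 tested members were lower than with E2, 1 was higher and the median was -0.491. Beside the genes above these included ELL2, an elongation factor gene, with 105, 90.9 and 92.9 CPM with E2+Enza and 188, 192 and 185 CPM with E2 (-0.97 ± 0.04). The homeobox gene HOXB13 was the one that rose (0.12), and TRPM8, a cold-sensing channel gene, and ACP3, the prostatic acid phosphatase gene, were not called, although TRPM8 was with cyclic loess (-0.28). Of the same 49, 38 were above vehicle with E2+Enza and 1 was below, against 4.52% and 2.91% of all genes tested.

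The androgen-repressed list ran the other way, with 19 of 29 members higher, 3 lower and a median of 0.401. The shares over all genes tested were 6.27% higher and 7.26% lower. TP53INP1, a stress and autophagy gene, had 161, 164 and 156 CPM with E2+Enza and 106, 98.9 and 99.7 CPM with E2 (0.65 ± 0.03). The chemokine receptor gene ACKR3 had 71.9, 72.7 and 76.6 CPM with E2+Enza and 52.0, 49.6 and 51.7 CPM with E2 (0.52 ± 0.04), and the signalling adaptor GRB10 had 124, 128 and 130 against 91.6, 92.0 and 95.6 CPM (0.45 ± 0.03). All 3 genes separated the groups and had intermediate levels with E2+Enza between E2 and vehicle. The 3 members that fell were UGT2B28 (-1.13), UGT2B11 (-0.55) and the sialyltransferase gene ST6GALNAC1 (-0.61). Unlike the list median of -0.732, all 3 were higher with E2 than with vehicle in LNCaP, by 2.65, 1.39 and 0.81 in that order. These values share the E2 libraries. Another set member, OPRK1, had 2.06, 1.62 and 1.55 CPM with E2+Enza and 1.01, 1.11 and 0.965 CPM with E2 (0.55 ± 0.11, adjusted p = 0.00079), far from the 12.5 ± 0.547 CPM with Enza alone.

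Of 12 glucocorticoid-shared genes, inducible by several steroid receptors, 9 fell and 1 rose, with a median of -0.429. Among all genes tested 7.26% fell and 6.27% rose. SLC2A3, SGK1, FKBP5 and ERRFI1 fell most, the clock gene PER1 (-0.53) and the zinc finger gene ZBTB16 (-0.50) also fell, and DUSP1 rose (0.24 ± 0.05). In the luminal prostate list 8 of 18 fell and 3 rose, with KRT8, a keratin of luminal cells, at 202, 198 and 196 CPM with E2+Enza and 334, 316 and 310 CPM with E2 (-0.69 ± 0.04), and SPDEF, an ETS factor of secretory cells, lower by 0.52 ± 0.03 on the log2 scale. A list of ion channels and transporters of hormone response had 8 of 17 lower and 3 higher. KCNMA1, a potassium channel gene, was among those that fell (-0.43 ± 0.04). Other members that fell, such as CHRNA2, SLC38A4 and SLC2A3, are counted in the lists above as well.

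The unfolded protein response, which adjusts folding capacity of the endoplasmic reticulum, was lower in 14 of 18 members and higher in 0. Its median was -0.178, and 7.26% of all genes tested were lower and 6.27% higher. HSPA5, its main chaperone, had 651, 648 and 639 CPM with E2+Enza and 759, 781 and 790 CPM with E2 (-0.26 ± 0.03, adjusted p = 7.77e-07). DNAJC3 fell by 0.35 ± 0.04, HERPUD1 by 0.26 ± 0.04 and MANF by 0.24 ± 0.04, without overlap of the groups. The changes were small next to those of SGK1 or FKBP5. With total read scaling the count was 11 lower, still with 0 higher.

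Genes of the amino acid response governed by ATF4 moved up in 9 of 18 cases and down in 1. The shares over all genes tested were 6.27% up and 7.26% down. ATF4 itself had 229, 241 and 250 CPM with E2+Enza and 201, 203 and 211 CPM with E2 (0.22 ± 0.04). The cystine transporter gene SLC7A11 had 118, 108 and 111 CPM with E2+Enza and 85.3, 83.6 and 85.0 CPM with E2 (0.41 ± 0.05), and the serine synthesis gene PSAT1 rose by 0.25 ± 0.03. In each of these the E2+Enza libraries were all above the E2 libraries and close to vehicle. VLDLR, a lipoprotein receptor gene, was the member that fell (-0.71 ± 0.08). Of 22 p53 targets 8 rose and 1 fell, with TP53INP1, BTG2 (0.25 ± 0.04) and ZMAT3 (0.25 ± 0.04) among those that rose and the death receptor gene TNFRSF10B falling by 0.31 ± 0.03.

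Lipid and polyamine genes fell in part, beside 7.26% lower and 6.27% higher among all genes tested. In the cholesterol list 11 of 23 fell and 2 rose. SC5D, a sterol desaturase gene of late cholesterol synthesis, had 65.1, 57.8 and 62.1 CPM with E2+Enza and 71.7, 73.0 and 75 CPM with E2 (-0.25 ± 0.04). In the fatty acid list 6 of 18 fell and 1 rose, led by ACSL3, an acyl-CoA synthetase gene, with 522, 443 and 445 CPM with E2+Enza and 901, 915 and 917 CPM with E2 (-0.96 ± 0.04), and the elongase ELOVL5 (-0.48 ± 0.04). Among polyamine genes 4 of 11 fell and 0 rose: spermine synthase SMS by 0.47 ± 0.03, ODC1, the rate-limiting decarboxylase, by 0.32 ± 0.04, SAT1 by 0.40 ± 0.05 and SMOX by 0.39 ± 0.12. The groups did not overlap for any of these 7 named lipid and polyamine genes, which were picked for a small p in this comparison. Of all 14251 genes tested, 4323 had groups without overlap.

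Changes of cell cycle genes were small in size, and among all genes tested 7.26% fell and 6.27% rose. Of 27 genes of G1/S and DNA replication 7 fell and 0 rose, the largest named being RRM2 (-0.22 ± 0.04), and of 28 of G2/M 4 fell and 0 rose, with CDK1 at -0.14 ± 0.03. With total read scaling 2 and 0 of them fell, the call of CDK1 among those lost, while the medians of -0.092 and -0.065 moved to -0.061 and -0.033. The ER-activated list, genes known as estrogen receptor targets in breast cells, had 5 of 15 higher and 2 lower, with a median of -0.008. GREB1, also an androgen target in prostate cells, had 30.2, 27.1 and 27.0 CPM with E2+Enza and 50.5, 48.7 and 56.1 CPM with E2 (-0.87 ± 0.09), and MYBL1 fell by 0.67 ± 0.08, while ABCA3 (0.28 ± 0.04) and CELSR2 (0.24 ± 0.04) rose.

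Smaller lists were mixed, and their counts stand beside 7.26% lower and 6.27% higher among all genes tested. Among immediate early genes 3 of 15 rose and 2 fell, the fallers being NR4A1 (-0.84 ± 0.06) and FOSL2 (-0.82 ± 0.04), while MYC rose by 0.20 ± 0.03. In the TGF-beta and BMP list 3 of 13 fell, PMEPA1 (-0.46 ± 0.04), BMPR1B (-0.41 ± 0.04) and ID2 (-0.46 ± 0.11), the last with overlapping groups, and the pseudoreceptor gene BAMBI rose (0.44 ± 0.05). Of 9 steroid-converting enzyme genes 2 rose and HSD17B4 fell (-0.17 ± 0.03). In the neuroendocrine list DDC (0.45 ± 0.06) and ENO2 (0.38 ± 0.08) rose and SYT4 fell, of 4 tested. With total read scaling SYT4 was not called (-0.11, adjusted p = 0.0747). KRT14 was the called member of the 4 tested basal genes (-0.55 ± 0.17). With total read scaling KRT14 was not called (-0.52, adjusted p = 0.0511) and ITGB4, an integrin gene, was (0.46, adjusted p = 0.0484). No fibroblast, leukocyte or mitochondrial gene passed the limma test.

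**Figure D3:**
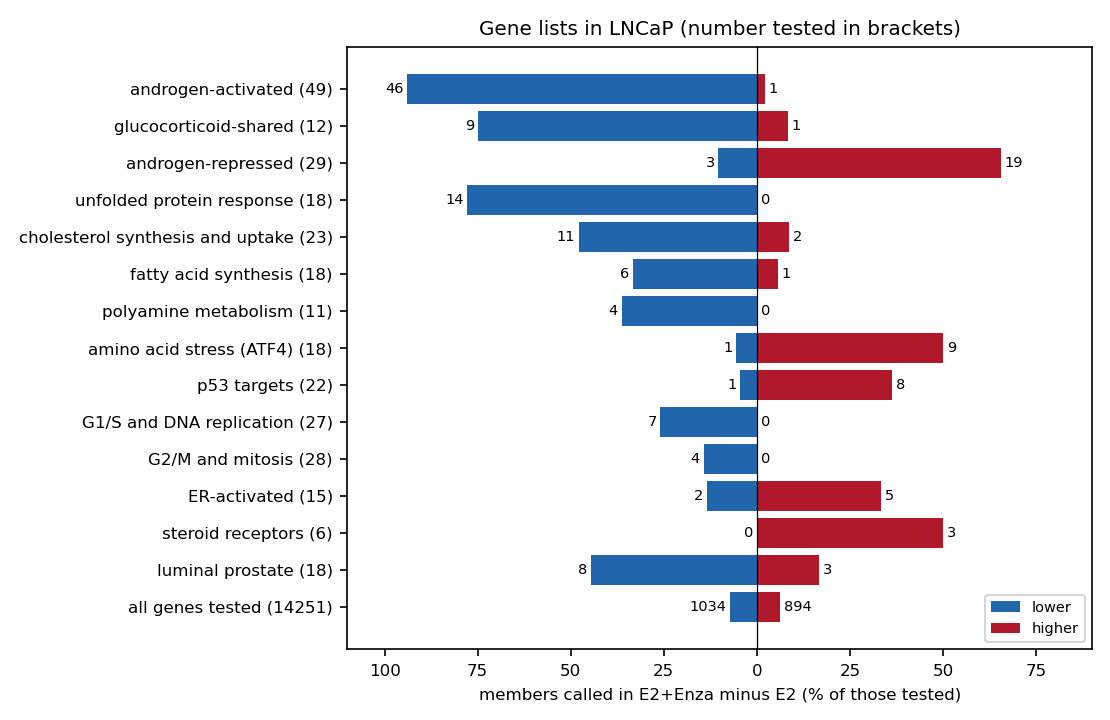
Share of the tested members of each list (%) that were lower (to the left) or higher (to the right) with E2+Enza than with E2 in LNCaP, with counts beside the bars. In the androgen-activated list 46 of 49 were lower, against 1034 of all 14251 genes.

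Whether the effect of Enza depended on E2 was tested as an interaction, the effect of Enza with E2 minus its effect without E2. Limma called 1290 of 14251 genes (9.05%), 643 above 0 and 647 below it, and 660 above and 359 below at total read scaling. SGK1, NDRG1, KLK3, KLK2, TMPRSS2, SLC45A3 and FKBP5 kept direction and call under every alternative run.

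Among the values below 0 were those of genes that Enza lowered more with E2 than without it. NDRG1 averaged 81.0 ± 3.75 CPM with E2+Enza and 273 ± 14.0 CPM with E2, but 51.1 ± 8.87 CPM with Enza and 51.6 ± 12.0 CPM with vehicle, an interaction of -1.74 ± 0.15 (adjusted p = 2.23e-09). SGK1 was 0.37 ± 0.13 higher on the log2 scale with Enza alone than with vehicle and 1.93 lower with E2+Enza than with E2, an interaction of -2.31 ± 0.19 (adjusted p = 1.31e-09). STEAP4 had -2.00 ± 0.26, PNLIP, a pancreatic lipase gene, -1.48, AMOTL1, an angiomotin family gene, -1.48, and FKBP5 -0.91. Without E2 the log2 difference was -0.60 for FKBP5 and called. STEAP4 averaged 0.0902 CPM with Enza alone and 0.319 CPM with vehicle, a difference that the added 0.5 CPM understates, and its interaction was not called with voom weights.

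Among the values above 0 were those of genes that Enza lowered more without E2 than with it. SLC45A3 averaged 382 ± 15.4 CPM with E2+Enza and 559 ± 12.0 CPM with E2, and 64.2 ± 3.33 CPM with Enza and 207 ± 3.83 CPM with vehicle. Its log2 difference was -0.55 with E2 and -1.68 without it, an interaction of 1.13 ± 0.05 (adjusted p = 5.25e-15). The interaction was 1.12 for KLK2, 0.92 for TMPRSS2 and 0.85 for KLK3. For all of them the level with E2+Enza exceeded the vehicle level while the level with Enza alone lay far under it.

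CHRNA2 had 26.1, 22.0 and 23.3 CPM with E2+Enza and 49.7, 48.3 and 45.8 CPM with E2, and 0.676, 0.871 and 0.733 CPM with Enza and 10.1, 9.42 and 9.28 CPM with vehicle (interaction 2.01 ± 0.13). TRPM8 had 12.3, 10.3 and 11.5 CPM with E2+Enza and 15.2, 12.9 and 12.7 CPM with E2, and 2.41, 2.28 and 2.33 CPM with Enza and 13.6, 12.0 and 12.5 CPM with vehicle (interaction 1.97). With Enza alone both genes were clearly below all other groups. PLCXD3 (1.95) and the focal adhesion gene TNS3 (1.61) were likewise lowered by Enza without E2 and not called with it. OPRK1 rose in both settings, by 0.55 with E2 and by 1.59 without it (interaction -1.04), and DAPK1 by 1.33 and 0.73 (interaction 0.60, not called with a pseudocount of 2 CPM).

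The effects of Enza with and without E2 rest on separate libraries. Over 14251 genes they correlated with r = 0.417, a description across genes, which are not independent replicates. Called in both were 924 genes, 47.9% of the calls with E2 and 31.7% of those without it, while 13.5% and 20.4% of all genes tested were called with and without E2. Of these 452 were lower in both, 369 higher in both and 103 moved in opposite directions.

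**Figure D4:**
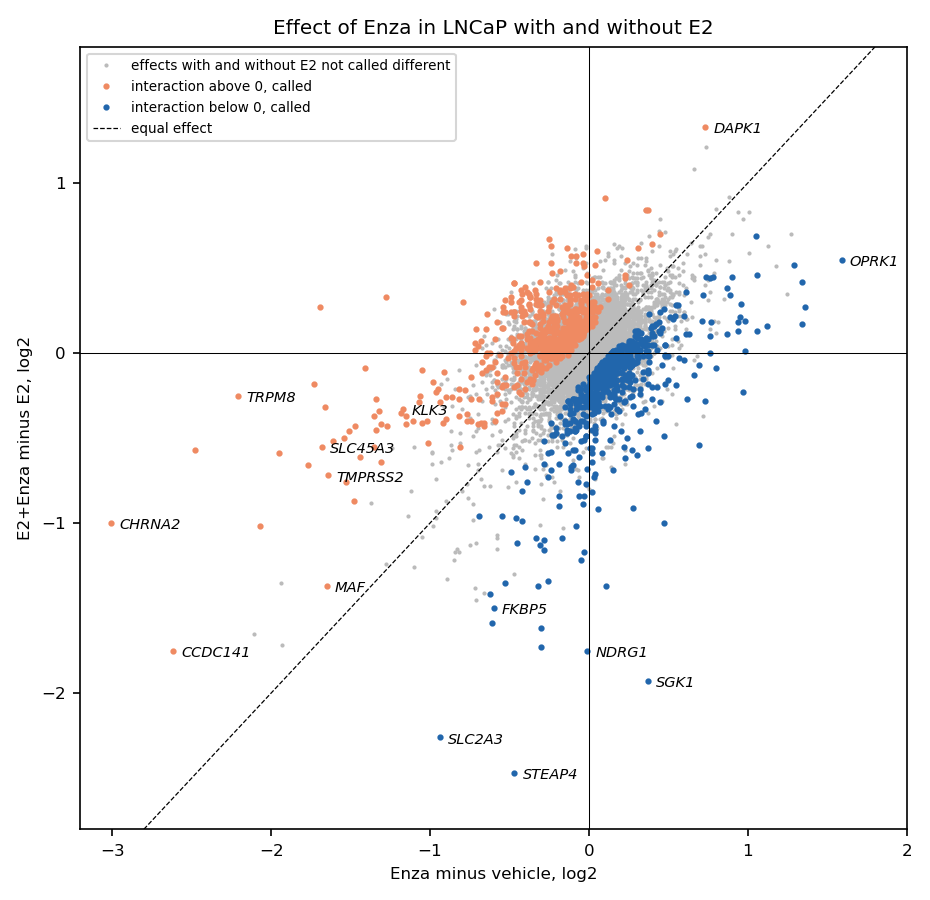
Log2 difference of E2+Enza minus E2 (vertical) against Enza minus vehicle (horizontal) for 14251 genes in LNCaP, coloured where the interaction was called and with a dashed line of equal effect. CHRNA2 and TRPM8 lie above the line with values of -3.01 and -2.21 without E2, and SGK1 and NDRG1 lie below it near 0.37 and -0.01.

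The same addition of Enza to E2 was made in C4-2 and 22Rv1, and the difference between lines was tested in a fit of all 54 libraries. LNCaP differed from C4-2 in 207 of 16026 genes (1.29%), 59 with a higher and 148 with a lower value in LNCaP, and from 22Rv1 in 507 (3.16%), 250 higher and 257 lower. At total read scaling the splits were 63 and 91, and 378 and 188. Leaving out the third E2 library of C4-2, which has high ribosomal RNA, gave 159 calls.

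The decrease of NDRG1 was larger in LNCaP (-1.75) than in C4-2, where it averaged 102 CPM with E2+Enza and 139 CPM with E2 (-0.44 ± 0.08), a difference of -1.31 ± 0.14 (adjusted p = 8.45e-09). In 22Rv1 NDRG1 averaged 54.3 and 89.3 CPM with E2+Enza and E2 (-0.71 ± 0.06), a difference of -1.03 ± 0.14. FKBP5 fell by 1.17 ± 0.05 in C4-2 and by 0.60 ± 0.05 in 22Rv1, and LNCaP differed from them by -0.33 ± 0.08 and -0.90 ± 0.08. SLC45A3 was the reverse case, lowered more in C4-2 (-1.02 ± 0.06) than in LNCaP (difference 0.47 ± 0.08). KLK3 and KLK2 were not called different between lines; the 95% intervals of the LNCaP minus C4-2 difference were -0.33 to 0.09 for KLK3 and -0.18 to 0.10 for KLK2.

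Several differences rest on genes that were low in LNCaP or in the other line. SNAI2 had 0 reads in both 22Rv1 groups and SLC2A3 under 0.05 CPM there, and both were called different from 22Rv1 (-1.72 ± 0.22 and -2.24 ± 0.21). STEAP4 was lower by 0.91 ± 0.18 in C4-2 and differed from it by -1.56 ± 0.22. NNT, a mitochondrial transhydrogenase gene, averaged 1.58 ± 0.427 CPM with E2+Enza and 4.96 ± 0.481 CPM with E2 in LNCaP, against 15.9 and 17.4 CPM in C4-2, a difference of -1.29 ± 0.14. HPGD, which inactivates prostaglandins, and PNLIP also had lower values relative to C4-2 (-1.12 and -1.09), and both calls were lost with voom weights.

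Among genes that Enza raised, DAPK1 averaged 13.6 and 9.21 CPM with E2+Enza and E2 in C4-2 (0.53 ± 0.07) and 4.42 and 4.16 CPM in 22Rv1 (0.08 ± 0.13, not called), so that LNCaP differed by 0.80 ± 0.15 and 1.25 ± 0.15. The difference from C4-2 was not called with a pseudocount of 2 CPM, and ranged from 0.39 to 1.09 over the alternatives. LRRN1 was called in LNCaP alone (C4-2 0.18 ± 0.11, 22Rv1 -0.06 ± 0.08), with differences of 0.66 ± 0.13 and 0.91 ± 0.13. Relative to 22Rv1 the leading values above 0 were DAPK1, the carbonic anhydrase gene CA13 (1.16), TGM3 (1.05), ABCA12 (0.99) and the aquaporin gene AQP3 (0.98). CA13 and AQP3 were not called in LNCaP and fell in 22Rv1 by 0.92 ± 0.14 and 0.70 ± 0.07.

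**Figure D5:**
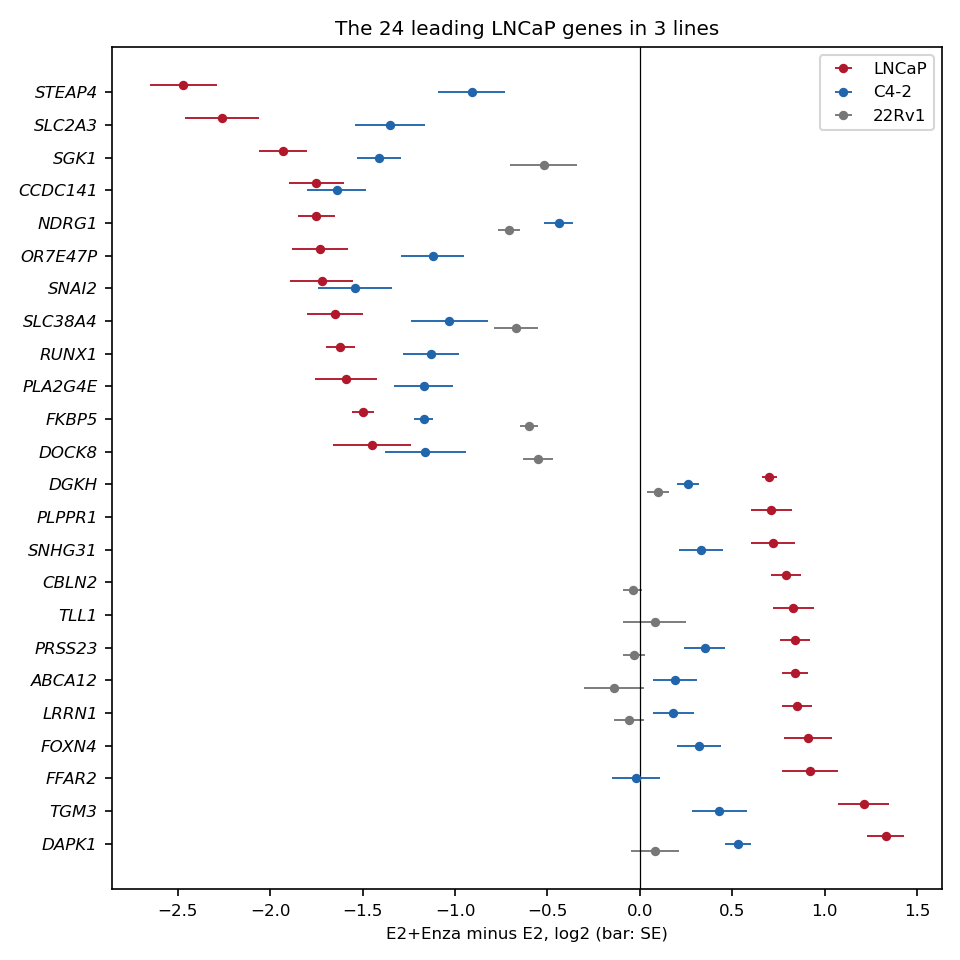
Log2 difference of E2+Enza minus E2 with its SE for the 12 genes lowered most and the 12 raised most in LNCaP, in LNCaP, C4-2 and 22Rv1, with no point where a gene was too low to be tested. FKBP5 has -1.50 in LNCaP, -1.17 in C4-2 and -0.60 in 22Rv1, and DAPK1 has 1.33, 0.53 and 0.08.

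The letters AGAACA were in 9.81% of the windows of lowered genes, in 10.3% of those of raised genes and in 9.87% of those of all tested genes, and in 9 of 54 windows (16.7%) of genes lowered at least 2-fold. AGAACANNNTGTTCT and GGTCANNNTGACC were in none of the windows of called genes. Windows were found for 852 of 1034 lowered and 688 of 894 raised genes and for 34 of the 49 genes lowered at least 2-fold, some with several start sites and so several windows. The windows reach 250 bases upstream and hold no distal enhancers.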

How the data were processed

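Total RNA was sequenced with a stranded kit in 54 libraries, 6 of them compared here, with groups taken from sample titles. Per the submitters' processing notes, reads were handled with Trimmomatic, FastQC, featureCounts and edgeR on hg38, and the design text names Rsubread; their versions, and whether counting used strand, are not given in the sources. The labels call the table CPM, yet what the authors deposited is a score: they added 0.5 reads, took log2 of CPM and rescaled each column to a sum of 1000000. This reading comes from the values: whole reads were recovered for 100% of them within a tolerance of 0.01. The deposited log2 scale was turned back to CPM with the authors' effective library sizes, 0.984 to 0.996 of total reads with E2+Enza and 0.966 to 0.972 with E2.

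Tests used limma 3.58.1 in R 4.3.3 on log2(CPM + 0.5), allowing the variance to follow mean expression. They ran over all 18 LNCaP libraries within the line and all 54 between lines. The libraries with OSU-ERb-12, alone or with Enza, thus entered the estimate of spread and the filter on low genes. A fit took genes that reached 1 CPM in 3 or more of its libraries. Two-sided p-values were adjusted by the Benjamini-Hochberg method over all genes of a comparison and called under 0.05. The script was tested on simulated data. edgeR and DESeq2 tests were planned and not run, because a score was deposited in place of counts, and voom on recovered reads was the alternative. RefSeq matched 18917 of 19225 rows, and 308 had no symbol. Replicate numbers were not used to pair the samples. Deviations from the group mean correlated weakly, at 0.037, 0.041 and 0.082, for same-numbered E2+Enza and E2 libraries. For libraries of unlike number the correlations were -0.054 to 0.013.

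Named genes are the 12 with the largest log2 difference each way among called genes whose groups did not overlap, that have a symbol and that average 1 CPM or more, a set of 12 genes of steroid hormone response, up to 4 members per list with the smallest p, 5 each way in the interaction and line differences and 6 each way against vehicle. PRR15L, SYT4 and the uncalled members, the strongest members of the other-line lists and some list members were chosen after their values were seen. The comparison, the lists and the rule were chosen with earlier results of these data known. Some list and set members are not reported here.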

Additional observations from a re-analysis of the deposited data

Results flagged for a closer look

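The effect of adding Enza to E2 was tested for a difference between lines by limma in the fit of all 54 libraries, and the named genes below were called. Each value is the log2 effect in LNCaP minus that in the other line. No explanation was weighed, and many of these genes have few reads in LNCaP or in the other line.

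Relative to C4-2, values below 0 were found for STEAP4 (-1.56), NDRG1 (-1.31), NNT (-1.29), HPGD (-1.12), PNLIP (-1.09), SLC2A3 (-0.91) and FKBP5 (-0.33). Values above 0 were found for FFAR2 (0.94), CXCL12 (0.90), TLL1 (0.88), DAPK1 (0.80), DRAIC (0.75), LRRN1 (0.66), ABCA12 (0.66), OPRK1 (0.65), PRSS23 (0.49), SLC45A3 (0.47) and DGKH (0.45). CXCL12 was under 1 CPM in all 6 LNCaP libraries and was not tested in LNCaP alone. TLL1 was not called with voom weights (0.65 to 2.23 over the alternatives), nor DAPK1 with a pseudocount of 2 CPM. The call of FFAR2 was lost without LNCaP E2 library 2, LNCaP E2+Enza library 2 or C4-2 E2+Enza library 1.

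Relative to 22Rv1, values below 0 were found for SLC2A3 (-2.24), STEAP4 (-1.81), SNAI2 (-1.72), PLA2G4E (-1.68), CCDC141 (-1.60), OR7E47P (-1.48), SGK1 (-1.41), NNT (-1.38), PNLIP (-1.37), NDRG1 (-1.03), SLC38A4 (-0.98), MAF (-0.91), FKBP5 (-0.90), HPGD (-0.90), DOCK8 (-0.89) and TMPRSS2 (-0.44). Values above 0 were found for DAPK1 (1.25), CA13 (1.16), TGM3 (1.05), FFAR2 (1.03), ABCA12 (0.99), AQP3 (0.98), LRRN1 (0.91), PRSS23 (0.87), CBLN2 (0.84), TLL1 (0.74), SNHG31 (0.70), PLPPR1 (0.70), DGKH (0.60), OPRK1 (0.58) and CXCL12 (0.52).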

How the results depend on the processing

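Calls in E2+Enza minus E2 numbered 1928, and 1923 with voom weights, 1952 with cyclic loess and 1943 with the replicate block. The block changed no call among the 33 leading and set genes. The main fit used no pairing, although each library correlated best, if weakly, with its own number. Those 33 genes kept direction and call under each alternative run (30 of them could be tested with a minimum of 5 CPM). E2+Enza minus vehicle moved from 1058 to 644 calls with only its own groups and to 657 in 1 fit of all 54 libraries, where the interaction moved from 1290 to 832; the cause was not tested. Restricting the raised genes of the other lines to 2-fold changes moved their median to -1.163, with 10 genes; no lowered gene met that rule. Leaving out 1 library at a time gave 1413 to 1687 calls for E2+Enza minus E2, 568 to 1389 for E2+Enza minus vehicle, 2792 to 3801 for E2 minus vehicle and 931 to 1706 for the interaction. It gave 148 to 218 calls for LNCaP relative to C4-2, 365 to 507 relative to 22Rv1, and medians of -0.416 to -0.38 for raised and 0.264 to 0.289 for lowered genes of the other lines. Total read scaling gave 1148 higher and 2657 lower for E2 minus vehicle, against 1894 and 1657. Interaction values of SLC2A3, CCDC141, SNAI2, SLC38A4, DOCK8, FFAR2 and LRRN1 changed sign under at least 1 setting, and that of MAF lost its call in 6 of 18. With voom weights SLC2A3, CCDC141, SNAI2 and TGM3 were not called between LNCaP and 22Rv1. Drawing the other-line lists without 3 libraries, the list scalings and the settings for genes of the other comparisons were chosen after seeing the data. Under 1 CPM, fewer than about 50 reads stand behind a value, and small changes of such genes were not detectable.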

Other observations

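Of the 103 genes called in opposite directions by Enza with and without E2, 57 fell with E2 and rose without it. NUCB2, a calcium-binding protein gene, averaged 48.3 CPM with E2+Enza and 54.7 CPM with E2 (log2 difference -0.18 ± 0.04), and 67.6 CPM with Enza and 48.3 CPM with vehicle (0.48 ± 0.04). TNFRSF19, a TNF receptor family gene, averaged 34.7 and 46.0 CPM with E2+Enza and E2 (-0.40 ± 0.06) and 43.8 and 32.8 CPM with Enza and vehicle (0.42 ± 0.06). SCNN1G, a sodium channel subunit gene and a known mineralocorticoid target in kidney, averaged 0.687 and 1.22 CPM with E2+Enza and E2 (-0.54 ± 0.17) and 2.56 and 1.42 CPM with Enza and vehicle (0.69 ± 0.17). VWF, the von Willebrand factor gene, went the opposite way, with 13 and 10.4 CPM with E2+Enza and E2 (0.30 ± 0.08) and 12.4 and 17.6 CPM with Enza and vehicle (-0.49 ± 0.08). These genes were chosen after their values were seen.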
